A study of Mus musculus with 16 samples.

Results

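In mIMCD3 cells, 68 of the 55367 genes counted were well expressed in wild-type (WT) cells under every condition and close to silent in cells without Nrf2. They were chosen by raw counts alone. A gene was kept if it had at least 100 counts in each of 12 WT libraries and at most 10 counts in each of 4 Nrf2-/- libraries, and 6 genes that met both limits were dropped because their symbols began with Slc, Col and other family prefixes set aside by the rule. The dropped genes were Col4a1, Col4a2, Col5a1, Col5a3, Slc16a10 and Slco4a1. Of the 10038 genes that reached the WT limit, 74 therefore met both limits before that step. With the genotypes exchanged and the same symbol families dropped, 12 of the 10262 genes that reached 100 counts in each Nrf2-/- library had at most 10 counts in each WT library. There the upper limit had to hold in 12 WT libraries rather than in 4 Nrf2-/- libraries, so 12 and 68 are not counts of like kind.

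The cells, an epithelial line named mIMCD3, derive from the inner medullary collecting duct of the mouse. WT cells received DMSO, the solvent, or 10 µM sulforaphane (SFN) for 5 h, and RNA was taken under isosmotic conditions or after 1 h or 6 h at 600 mOsm, which gave 6 conditions of 2 biological replicates. Nrf2-/- cells were made with Cas9 and a guide against Nrf2 and drug selection. They were treated with SFN and sampled under isosmotic conditions and after 1 h of hyperosmotic stress, again with 2 replicates each, so the Nrf2-/- cells had no DMSO and no 6 h condition here. Whether they were grown from 1 clone, and whether the WT cells also carried Cas9, is not stated in the sources used here. Total counts per library lay between 34941937 and 50774875 in WT and between 34484296 and 36544765 in Nrf2-/- cells. With counts scaled to equal depth, 64 genes met the rule, 63 of them members.

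Nrf2, the product of Nfe2l2, is a transcription factor that Keap1 binds and marks for degradation. SFN modifies Keap1, Nrf2 then builds up, pairs with small Maf proteins and binds antioxidant response elements near genes for glutathione synthesis, detoxification and NADPH supply. Cells of the inner medulla live in a concentrated interstitium, and the transcription factor NFAT5 raises genes for osmolyte transport and synthesis when osmolality rises. Expression levels below are given as CPM, counts scaled to library size. For members, the values of single WT libraries and of single WT conditions were also adjusted by edgeR's TMM factors. Values set beside those of Nrf2-/- cells, and means over all WT libraries, carry no TMM adjustment. The same holds for flanking genes and for CPM per kb. A gene is said to have risen or fallen if its Benjamini-Hochberg adjusted p in edgeR's quasi-likelihood test was under 0.05 among the 18959 genes tested in the 12 WT libraries. Fold changes are log2 values with their standard error (SE), and each rests on 2 libraries per condition. In bulk RNA, fewer expressing cells and less RNA per cell cannot be told apart.

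The targeted gene itself was reduced but not absent. Nfe2l2 had 2496 to 5013 counts in the WT libraries and 386 to 433 counts in the Nrf2-/- libraries, and its CPM was 77.2 ± 8.11 (SD, n = 2) in WT cells and 11.7 ± 0.527 in Nrf2-/- cells under SFN and isosmotic conditions. A Cas9 cut need not remove the transcript, so the count checks the label only in part. In WT cells Nfe2l2 rose at 6 h, by 0.92 ± 0.08 on the log2 scale with DMSO and by 1.03 ± 0.08 with SFN. It did not pass the test for SFN in any of the 3 states, with log2 fold changes of -0.05, 0.17 and 0.05.

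Which genes met the limits was decided by the counts, and these are given as a description. Of the 68 members, 31 had no count in any Nrf2-/- library, where a count of 0 allows up to 3, and 43 had at most 3 counts in each. All members together made up 875 to 1163 CPM, without TMM scaling, in the WT libraries and 2.09 to 2.72 in the Nrf2-/- libraries. Peg3, an imprinted zinc finger gene expressed from the paternal allele, was the member with the highest mean CPM and had 1596 to 5416 counts in WT and 0 in all 4 Nrf2-/- libraries. Ccl2, the chemokine that attracts monocytes, had 950 to 5202 counts in WT and also 0 in every Nrf2-/- library. Havcr1, which encodes the kidney injury marker KIM-1, had 980 to 1627 counts against 0, and the kinase gene Lrrk2 had 651 to 2082 counts against 0. Unc5b, a netrin receptor, had the highest minimum in WT, 1848 counts, and between 0 and 6 counts in Nrf2-/- cells.

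**Figure D1:**
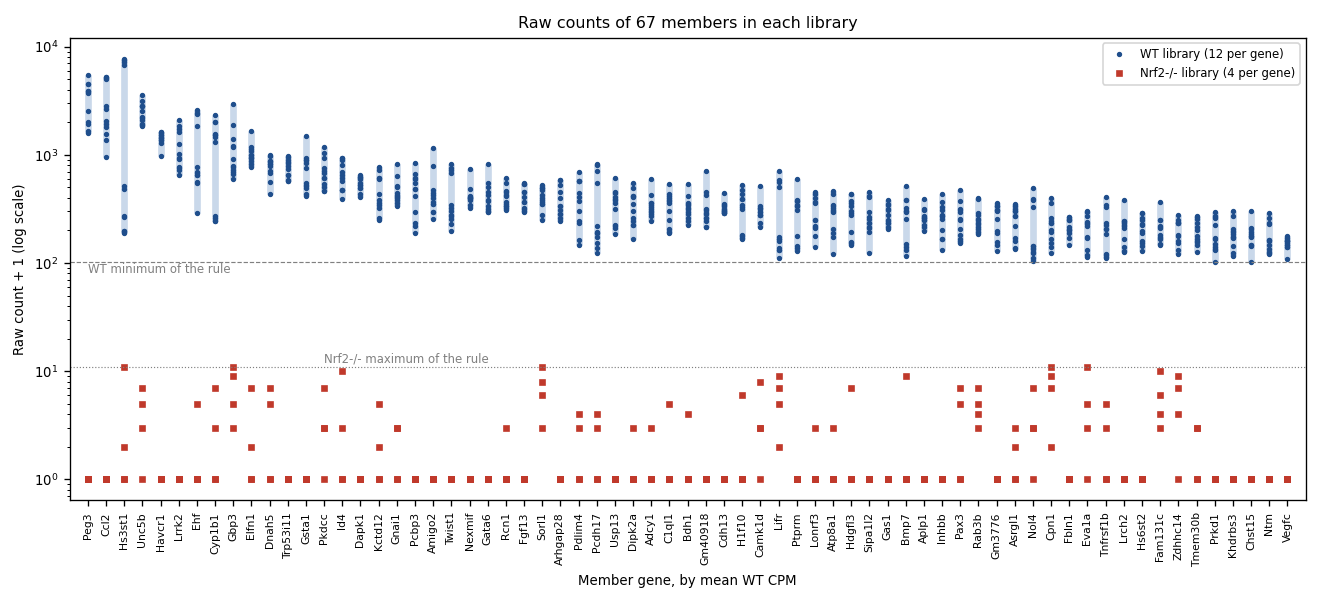
Raw counts plus 1 on a log axis for 67 of the 68 members, ordered by mean CPM in WT cells. Blue points are the 12 WT libraries, with a pale bar over their range, red squares are the 4 Nrf2-/- libraries, and the lines mark the 2 count limits of 100 and 10, between which none of these members has a point.

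The limits cut through a continuum. Just inside on the WT side were Prkd1 with a lowest count of 100, Chst15 with 102, Nol4 with 103, Vegfc with 108 and Tnfrsf1b with 109. On the Nrf2-/- side, Gbp3, Hs3st1, Eva1a, Sorl1 and Cpn1, reached 10 counts in a Nrf2-/- library. Just outside on the Nrf2-/- side were Abcc3 and Hunk, with up to 11 counts, and Irx1, Irx3 and Mmp14, with up to 12. Just outside on the WT side were Cxcl5 with a lowest count of 95, H2-Q7 and Tchh with 92, and Fndc3c1 and Dmd with 91. The lowest WT count of 37 members was between 100 and 200, and a WT minimum of 200 counts left 31 members, while one of 50 counts gave 113.

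The members fell into 10 functional groups by what their products are known to do. There were 6 transcription factors or regulators (Pax3, Ehf, Twist1, Gata6, Id4 and Peg3), which act in neural crest, epithelial and mesodermal development. A further 6 members encode other nuclear or RNA-binding proteins (H1f10, Hdgfl3, Khdrbs3, Pcbp3, Nexmif and Nol4). Secreted signals and matrix or extracellular proteins made up 9 members, among them the TGF-β family ligands Inhbb and Bmp7, the lymphatic growth factor Vegfc, Ccl2, C1ql1, Fbln1, the carboxypeptidase gene Cpn1, the secreted kinase gene Pkdcc and Dipk2a. The largest group, 13 members, encodes membrane receptors and adhesion proteins: Tnfrsf1b (a TNF receptor), Unc5b, Lifr (the receptor for leukaemia inhibitory factor), Cdh13, Pcdh17, Ntm, Amigo2, Elfn1, Ptprm, Havcr1, Gas1, Sorl1 and Aplp1.

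Kinases, G proteins and their partners were the next largest group, with 12 members: Camk1d, Gnai1, Adcy1, Prkd1, Dapk1, Lrrk2, Rab3b, the interferon-inducible GTPase gene Gbp3, Sipa1l2, Arhgap28, Fgf13 and Kctd12. Pdlim4, Dnah5 and Lrch2 are in a group of 4 members that encode cytoskeleton and scaffold proteins. Hs3st1, Hs6st2 and Chst15 encode sulfotransferases that modify heparan or chondroitin sulfate chains. The enzymes of metabolism and detoxification were Gsta1 and its close copy Gm3776 (glutathione S-transferases), Cyp1b1 (a cytochrome P450 induced by the aryl hydrocarbon receptor), Bdh1 (ketone body metabolism) and Asrgl1. The remaining protein-coding members were Usp13, Lonrf3, Zdhhc14, Atp8a1, Tmem30b, Eva1a, Trp53i11, Rcn1 and Fam131c, which act in ubiquitin transfer, palmitoylation, phospholipid flipping and other membrane processes, with the role of some not well described. Atp8a1 is a phospholipid flippase, and Tmem30b is a member of the family of flippase subunits. By gene type, 67 members were protein coding and 1, Gm40918, was a long intergenic noncoding RNA.

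The well known Nrf2 targets on the list used here were not among the members, but the list did not hold the member Gsta1. Of the 28 genes on this list, 25 had the WT minimum, and 0 of these had at most 10 counts in each Nrf2-/- library. Over all genes, 74 of the 10038 with the WT minimum met both limits, so 0 of 25 cannot be told apart from that share. The nearest was Nqo1, a quinone reductase, which had 0, 0, 9 and 4 counts in the Nrf2-/- libraries but as few as 60 in a WT library. Gsta4 and Gstm1, both glutathione S-transferases, had a mean of 57.4 and 89.7 CPM in WT and 0.702 and 1.02 CPM in Nrf2-/- cells. Others, such as Hmox1 with 159 and 41.0 CPM and Txnrd1 with 870.2 and 343 CPM, kept a part of their level. These WT means also take in DMSO and 6 h libraries, where both genes were lower. Under SFN, isosmotic and at 1 h, Hmox1 had 9728 to 16629 counts in WT and 849 to 1843 in Nrf2-/- libraries. Txnrd1 had 45405 to 66526 and 9930 to 13688. Of 8 NFAT5 targets with the WT minimum, 0 were members. Slc5a3, Slc6a6 and Slc38a2 among them were barred by their symbols, though each also had more than 10 counts in every Nrf2-/- library. A count of 0 among so few genes cannot be told apart from the share over all genes either.

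Markers of the cell type were checked with the same libraries, since the Nrf2-/- cells are a separate population. Of each pair of CPM values, the WT mean takes in DMSO and 6 h libraries and the Nrf2-/- mean does not. Krt8 (893 CPM in WT, 801 in Nrf2-/- cells), Krt18 (725 and 597) and Cdh1 (265 and 440), epithelial genes, were expressed in both. Other renal duct markers moved, with Cdh16 (253 and 20.2 CPM) and Elf3 (33.7 and 8.9 CPM) lower and Krt7 (277 and 1016 CPM), Epcam (88.1 and 284 CPM) and Grhl2 (29.5 and 90.9 CPM) higher in Nrf2-/- cells. Aqp2, the water channel of the collecting duct, was near 0 in both. The renal transcription factor genes Pax2 (419 and 25.3 CPM) and Pax8 (281 and 57.6 CPM) were lower in Nrf2-/- cells. So was the intermediate filament gene Vim (1085 and 171 CPM), though none of these was silent. Pax2 and Pax8 were highest in WT cells at 6 h, a condition the Nrf2-/- cells lack. In the WT SFN libraries, isosmotic and 1 h, Pax8 had 3403 to 5446 raw counts, beside 1743 to 2299 in Nrf2-/- libraries. For Pax2 it was 5182 to 7874 beside 819 to 977. Over the 20 renal duct markers listed, the summed level was 2741 to 5207 CPM in WT and 3503 to 4390 CPM in Nrf2-/- libraries, and 0 of the 13 with the WT minimum were members. Keratins made up a large part of that sum, and the median log2 difference of those 13, Nrf2-/- minus WT, was -0.28. Gata2 (2.49 and 0.0715 CPM) and Gata3 (3.81 and 0.528 CPM), also on that list but under the WT minimum, were near silent in Nrf2-/- cells. Over the 20 mesenchymal markers it was 2998 to 3969 and 3445 to 4198 CPM, and 1 of 8 with the WT minimum, Twist1, was a member. The fibronectin gene Fn1 made up most of that sum (2139 and 3280 CPM), while the median log2 difference of those 8, Nrf2-/- minus WT, was -2.06. Zeb1 (17.0 and 0.591 CPM) and Acta2 (11.2 and 0.481 CPM) were also lower in Nrf2-/- cells. Endothelial markers summed to at most 5.99 CPM in WT and 1.04 CPM in Nrf2-/- libraries. What the loss of Nrf2 and other differences between the 2 cell populations each contribute to the silence of the members cannot be told apart with these libraries.

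The members were scattered over the genome. They lay on 20 chromosomes, with at most 6 on any (chromosomes 2 and 15), which was 0.755% of the 795 genes on chromosome 2 with the WT minimum and 1.46% of the 412 on chromosome 15. The X chromosome held 5 members, 1.63% of its 306 such genes. Over all chromosomes, 68 of the 10034 such genes with a known position were members. Among them, 3 pairs lay within 1 Mb of each other. Gas1 and Dapk1 on chromosome 13 were 424582 bp apart, Ptprm and Arhgap28 on chromosome 17 were 488256 bp apart, and Gsta1 and Gm3776 on chromosome 9 were 14445 bp apart. Members had a median gene span of 58.7 kb, compared with 24.3 kb for genes with the WT minimum.

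The nearest expressed genes on each side were mostly retained in Nrf2-/- cells. Of 136 such flanking genes, 6 were members themselves, beside 68 of the 10034 genes with the WT minimum and a known position. These 6 are the 3 pairs above, counted from both sides. In the shares that follow, the WT mean takes in DMSO and 6 h libraries and the Nrf2-/- mean does not. They are thus no measure of genotype alone. Among the other 130, 106 (81.5%) differed less than 2-fold in mean CPM between Nrf2-/- and WT cells, compared with 87.3% of the 9970 non-member genes with the WT minimum, and their median log2 difference was 0.03. At least 8-fold lower levels were found for 4 of the 130 (3.08%, compared with 1.15%), among them Cd82 beside Trp53i11, Bend4 beside Atp8a1 and Gsta4 beside Gsta1. Bend4 had 1645 to 3854 counts in WT and 0 to 16 in Nrf2-/- libraries, and Cd82 had 799 to 1757 and 4 to 26. Gsta4, Gsta1 and Gm3776 thus were 3 neighbouring expressed glutathione S-transferase genes on chromosome 9 that were all low in Nrf2-/- cells. At the Peg3 domain on chromosome 7, the neighbouring imprinted gene Usp29 had 25 to 153 counts in WT and 0 in every Nrf2-/- library. Usp29 missed the WT limit, and Peg3 was 1 of 10 imprinted genes with the WT minimum and the only member among them.

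**Figure D2:**
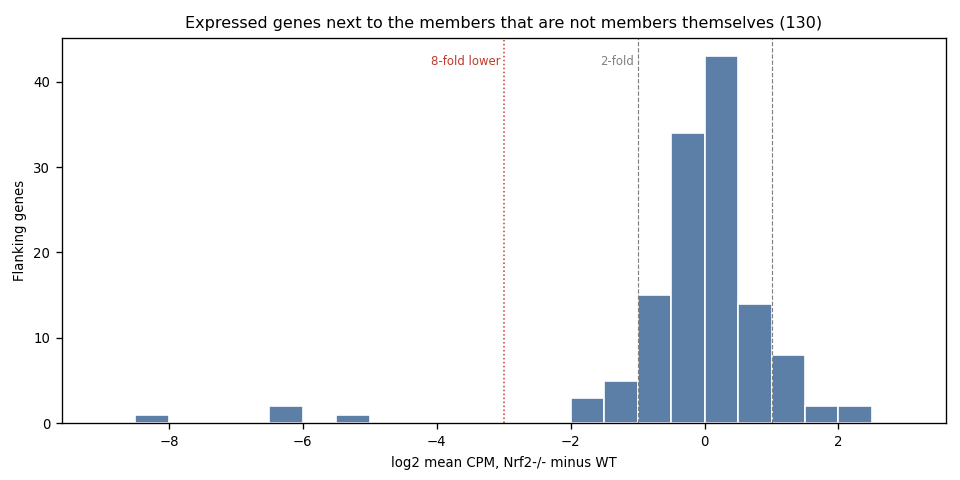
Histogram of the log2 difference in mean CPM, Nrf2-/- minus WT with 0.05 CPM added to each, for the 130 expressed genes that flank a member and are not members. Dashed lines mark a 2-fold difference in either direction, within which 106 genes lie, and the dotted line marks 8-fold lower, beyond which 4 genes lie.

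Gsta1 and Gm3776 could not be fully separated by their reads. Their annotated transcripts had 870 of 874 aligned bases in common (99.5%), so a read can match both, and how the counts of such reads were assigned is not given in the sources used here. Their upstream sequences are printed because both genes had 0 counts in every Nrf2-/- library and both are described below with SFN. The 250 bases before the RefSeq start of each gene (GRCm38.p6, plus strand, chr9:78230419-78230668 and chr9:78256879-78257128) aligned with an offset of 13 bases, and of 237 aligned bases 236 were identical. The capital marks the base that differs.
Gsta1: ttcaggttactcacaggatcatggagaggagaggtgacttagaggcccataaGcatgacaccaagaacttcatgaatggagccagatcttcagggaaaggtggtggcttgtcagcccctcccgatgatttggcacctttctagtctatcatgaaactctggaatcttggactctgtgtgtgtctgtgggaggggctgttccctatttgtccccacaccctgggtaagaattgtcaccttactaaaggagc
Gm3776: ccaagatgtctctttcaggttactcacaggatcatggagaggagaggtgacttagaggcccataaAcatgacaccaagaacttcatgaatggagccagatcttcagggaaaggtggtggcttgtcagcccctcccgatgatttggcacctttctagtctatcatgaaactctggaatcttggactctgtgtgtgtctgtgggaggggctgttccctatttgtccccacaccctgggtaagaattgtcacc

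The core of the antioxidant response element, TGACNNNGC, was searched on both strands in RefSeq promoter windows of 300 bases, 250 before and 50 after the start. Such windows were found for 54 of the 68 members, 71 windows in all. The core was present in 7 of the 71 (9.86%), compared with 14.4% of 10055 windows of genes with the WT minimum and 12.4% of all 32851 windows. The core followed by an A was present in 3 of the 71 (4.23%), compared with 2.5% of the windows of genes with the WT minimum and 3.04% of all windows. Windows rich in CpG (GC content of at least 50% and an observed to expected CpG ratio of at least 0.6) made up 59.2% of the members' windows and 73.0% of those of genes with the WT minimum. The matches are shown with up to 8 bases on each side, read along the strand that carries the core, which is in capitals.
Usp13, chr3:32817517-32817541, plus strand: gccccgccTGACGCTGCagctgggc
Chst15, chr7:132317393-132317417, plus strand: tgtggcagTGACCCGGCtaccagaa
Chst15, chr7:132317011-132317035, minus strand: gctctgggTGACTGGGCagggggtg
Vegfc, chr8:54077429-54077453, plus strand: tcgcggggTGACTGGGCttaaccac
Twist1, chr12:33957578-33957602, plus strand: caggccaaTGACACCGCtgccccca
Kctd12, chr14:102982799-102982823, plus strand: ctaaacgcTGACGCGGCtcggggct
Lifr, chr15:7129322-7129341, plus strand: cggTGACCTTGCaaggctgg

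A match of letters is no evidence of binding, and elements outside these windows were not searched. Of the 6 genes with a match, Kctd12 and Chst15 rose with SFN under isosmotic conditions, and Usp13, Vegfc, Twist1 and Lifr had no call in that comparison.

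SFN changed a large share of the members under isosmotic conditions, in both directions. In WT cells without stress, 27 of the 68 members passed the test (39.7%), at a background of 15.2% of all genes tested and 25.1% of the genes with the WT minimum. Of these 16 were higher and 11 lower with SFN, where 8.28% and 6.88% of all genes tested were higher and lower. The members' median absolute log2 fold change was 0.39, compared with 0.18 for genes with the WT minimum. Their own replicates were also more apart, by a median of 0.16 (DMSO) and 0.15 (SFN) on the log2 scale, compared with 0.12 and 0.13 for genes with the WT minimum. On the list of Nrf2 targets, 19 of 28 tested genes rose with SFN and 1 fell in the same comparison. With all 16 libraries in the fit, so that the spread was also taken from Nrf2-/- cells, 6 members passed, at a background of 2.84% of all genes tested.

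Gsta1 was the member with the largest rise. It had 12.3 and 11.9 CPM with DMSO and 24.1 and 27.4 CPM with SFN under isosmotic conditions, a log2 fold change of 1.10 ± 0.11 (2.14-fold). Both SFN libraries lay above both DMSO libraries. Amigo2, a neuronal adhesion protein gene, went from 10.5 and 10.1 to 21 and 21.1 CPM (1.03 ± 0.14). Dipk2a rose by 0.98 ± 0.20 on the log2 scale and Gata6, a transcription factor of endoderm and heart, by 0.90 ± 0.13. Pax3, a transcription factor of neural crest and muscle precursors, had 4.84 and 5.38 CPM with DMSO and 10.0 and 8.72 CPM with SFN (0.87 ± 0.16). Gbp3 rose from 28.6 and 30.0 to 50.4 and 54.0 CPM (0.83 ± 0.10). In the group of kinases, G proteins and their partners, 5 of 12 members rose (Camk1d, Gnai1, Adcy1, Gbp3 and Kctd12) and 0 fell. Of all genes tested, 8.28% rose and 6.88% fell, and of those with the WT minimum 13.8% and 11.2%. Whether this small group differs from other genes was not tested.

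The members that fell with SFN included the 3 with the highest mean CPM over the 12 WT libraries, Peg3, Ccl2 and Hs3st1. The rank of Hs3st1 comes from its 6 h libraries. Under isosmotic conditions with DMSO its mean of 11.35 CPM was below that of Unc5b (67.5 CPM). Hs3st1 had 12.3 and 10.4 CPM with DMSO and 5.12 and 3.57 CPM with SFN, a log2 fold change of -1.41 ± 0.13 (2.66-fold lower). Ccl2 (chr11:82035571-82037453, plus strand, GRCm38) went from 66.3 and 57.9 CPM to 25.6 and 25.5 CPM (-1.28 ± 0.08, 2.43-fold lower). For both genes the ranges of the DMSO and SFN libraries were well apart. Eva1a, which acts in autophagy and cell death, fell by 1.11 on the log2 scale (SE 0.22), Bdh1 by 0.75 (SE 0.17), Ehf, an epithelial ETS factor, by 0.73 (SE 0.13), and Tmem30b by 0.62 (SE 0.19). Peg3, with 106 and 80.3 CPM in DMSO libraries and 68.4 and 70.0 CPM in SFN libraries, had a log2 fold change of -0.43 ± 0.11.

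Under hyperosmotic stress far fewer members passed the test for SFN. At 1 h and at 6 h, 1 of the 68 members passed the test, at a background of 0.533% and 0.243% of all genes tested and 0.946% and 0.418% of those with the WT minimum, and in both it was Gsta1. Higher calls made up 0.411% and 0.190% and lower calls 0.121% and 0.0527% of all genes tested. Without adjustment, 17 members at 1 h and 8 at 6 h had p under 0.05, and DESeq2 called 2 at 1 h, 1 higher and 1 lower, at a background of 1.41%. A fit to the 1 h libraries alone called 10 members, 2 higher and 8 lower, and 809 of 16350 genes tested (4.95%). Without either WT DMSO isosmotic library, 2 passed at each time. On the list of Nrf2 targets, 19 of 28 were higher with SFN at 1 h and 12 of 28 at 6 h, and 0 were lower. Gsta1 had 11.9 and 13.1 CPM with DMSO and 24.5 and 22.4 CPM with SFN at 1 h (0.91 ± 0.11), and 12.6 and 12.9 against 25.0 and 23.9 CPM at 6 h (0.94 ± 0.11). Its near-identical copy Gm3776 had log2 fold changes of 0.62 ± 0.26, 0.85 ± 0.26 and 0.94 ± 0.26 in the 3 states, which did not pass. Its isosmotic DMSO libraries, with 3.06 and 6.51 CPM, were the widest apart of any member and condition.

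**Figure D3:**
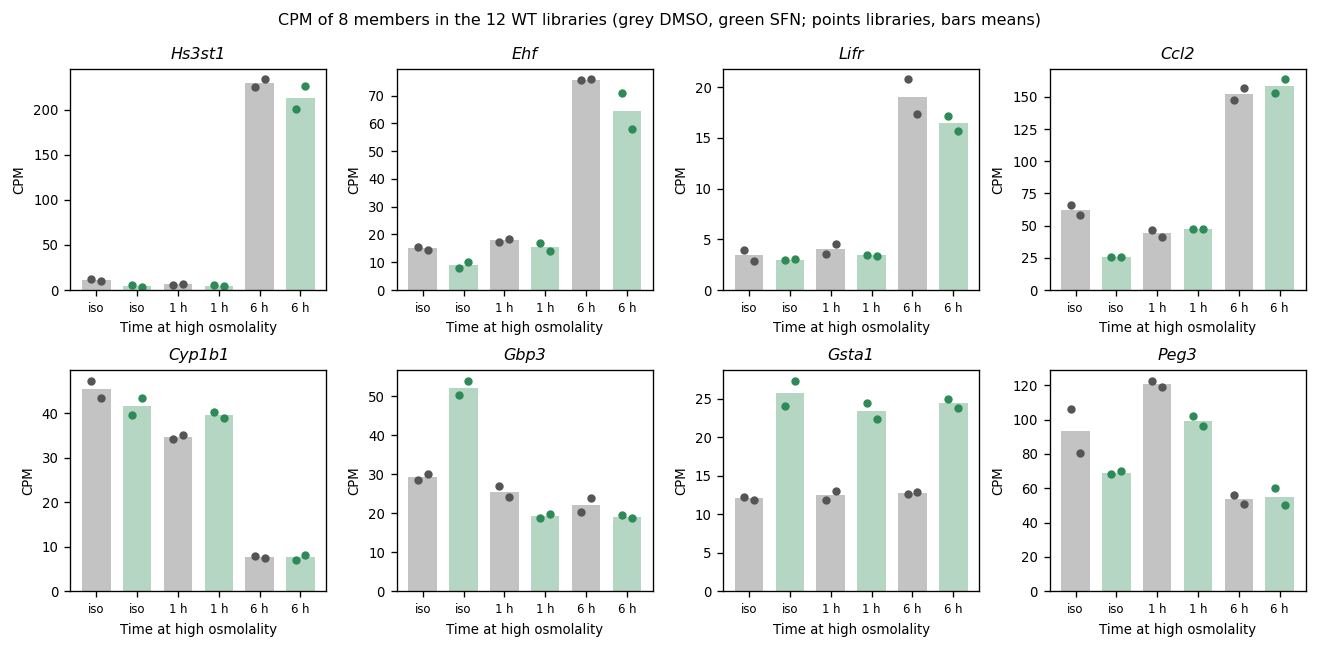
CPM of 8 members in the 12 WT libraries. Points are libraries, bars are means of 2 from an axis at 0, DMSO is grey and SFN green. Gsta1 is higher with SFN in each state, while Hs3st1, Ehf, Lifr and Ccl2 have their highest and Cyp1b1 its lowest values at 6 h.

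The difference in the SFN effect between states was tested directly. Relative to the isosmotic effect, the SFN effect differed for 9 members at 1 h (3 more positive, 6 more negative), at a background of 3.09% of all genes tested (1.92% and 1.17%) and 5.18% of those with the WT minimum. At 6 h it differed for 10 members (3 and 7), at a background of 4.24% of all genes tested (2.19% and 2.04%) and 7.05% of those with the WT minimum. These comparisons share the isosmotic libraries, so the values of both are given side by side without weight on their likeness. Ccl2, which was lower with SFN under isosmotic conditions, had 47.0 and 41.0 CPM with DMSO and 47.5 and 47.6 CPM with SFN at 1 h, and 148 and 157 against 153 and 164 CPM at 6 h. The shift in its SFN effect was 1.39 ± 0.12 at 1 h and 1.34 ± 0.12 at 6 h. For Hs3st1 it was 1.03 ± 0.20 and 1.31 ± 0.17. Gbp3 moved the other way. It had 26.9 and 24.2 CPM with DMSO and 18.7 and 19.7 CPM with SFN at 1 h, and the shifts were -1.24 ± 0.14 and -1.04 ± 0.14. Gata6 (-0.99 and -0.92) and Gnai1, which encodes an inhibitory G protein subunit (-0.75 and -0.68), also passed at both times. The spread between replicates was wider for the isosmotic pairs than for the stressed ones, with a biological coefficient of variation of 0.109 and 0.126 compared with 0.0390 to 0.0826. At 1 h, 5 members passed without WT DMSO 1 h replicate 2 or either WT SFN 1 h library, and at 6 h 5 or 6 passed without any of the 8 stressed WT libraries. With all 16 libraries in the fit, 2 passed at each time, at a background of 0.559% (1 h) and 0.759% (6 h) of all genes tested.

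**Figure D4:**
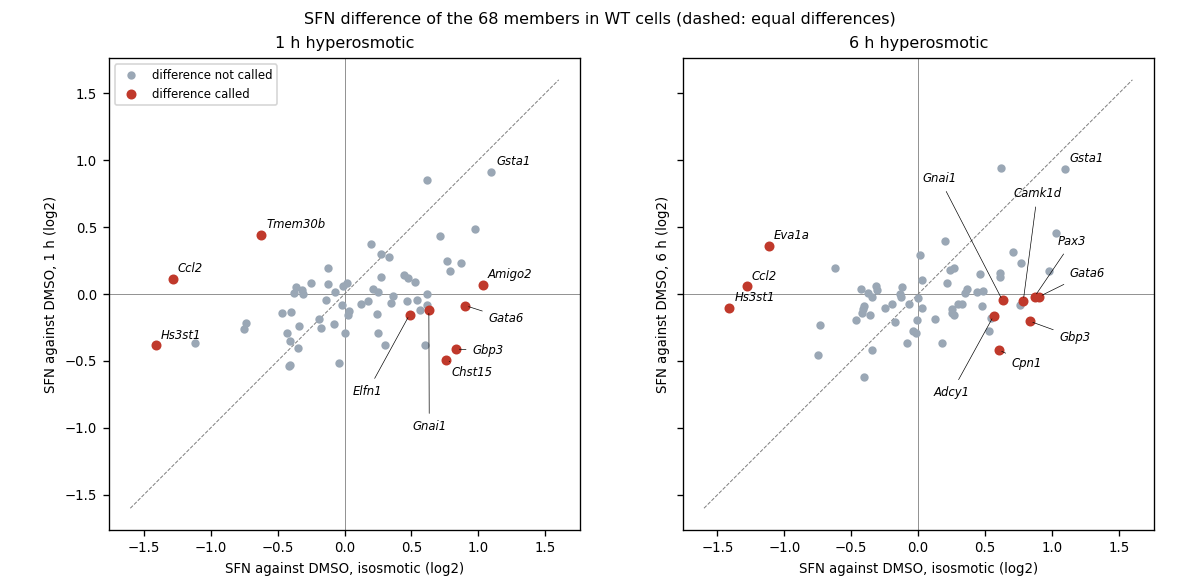
log2 fold change of SFN against DMSO in WT cells for the 68 members, isosmotic on the x axis and 1 h (left) or 6 h (right) of hyperosmotic stress on the y axis. Red points are the 9 and 10 members whose SFN effect differed from the isosmotic one. The median absolute value was 0.39 on the x axis and 0.15 and 0.14 on the y axes, and Gsta1 lies near the dashed line of equal effects.

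After 1 h of hyperosmotic stress, few members had changed. With DMSO, 12 of 68 passed (17.6%), at a background of 22.9% of all genes tested and 22.7% of those with the WT minimum. Of these 7 were higher and 5 lower, against 14.3% higher and 8.53% lower among all genes tested. The largest rises were those of Sipa1l2 (0.69 ± 0.22), Lonrf3 (0.57 ± 0.18), Camk1d (0.53 ± 0.16), Gata6 (0.50 ± 0.13), Dnah5, an axonemal dynein heavy chain gene (0.50 ± 0.17), and Peg3 (0.38 ± 0.11), and Dapk1 also rose. The falls were those of Hs3st1 (-0.79 ± 0.13), Tnfrsf1b (-0.60 ± 0.18), Pkdcc (-0.51 ± 0.12), Ccl2 (-0.50 ± 0.08) and Cyp1b1 (-0.39 ± 0.09). Hs3st1 had 6.12 and 7.03 CPM at 1 h, below both isosmotic DMSO libraries. Without WT DMSO isosmotic replicate 2 or without WT DMSO 1 h replicate 2, 4 members passed, and 5 passed without WT DMSO 1 h replicate 1. With all 16 libraries in the fit, 2 passed, at a background of 11.2% of all genes tested.

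With SFN, 18 members passed at 1 h (26.5%), at a background of 18.3% of all genes tested and 15.3% of those with the WT minimum. Of these 8 were higher and 10 lower, against 10.5% higher and 7.81% lower among all genes tested. Ccl2 rose (0.90 ± 0.08), as did Dnah5 (0.88 ± 0.17), Ehf (0.78 ± 0.13), Tmem30b (0.76 ± 0.19), Sorl1, a sorting receptor gene (0.69 ± 0.17), and Peg3 (0.52 ± 0.11). Gbp3 had the largest fall (-1.44 ± 0.10), followed by Amigo2 (-1.21 ± 0.14), Cpn1 (-0.92 ± 0.19), Gm40918 (-0.87 ± 0.16), Chst15 (-0.85 ± 0.20) and Gnai1 (-0.64 ± 0.13). Ccl2 and Gata6 passed in opposite directions with DMSO and with SFN. Their isosmotic levels differed between DMSO and SFN, and at 1 h the SFN difference did not pass, with 11.4 and 11.2 CPM (DMSO) and 11.8 and 9.52 CPM (SFN) for Gata6. With all 16 libraries in the fit, 7 members passed, at a background of 9.52% of all genes tested.

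After 6 h, changes were more frequent and larger, as they were across the transcriptome. With DMSO, 39 of 68 members passed (57.4%), at a background of 57.6% of all genes tested and 69.4% of those with the WT minimum. Of these 22 were higher and 17 lower (32.4% and 25.0% of the members), against 30.5% and 27.1% of all genes tested and 28.1% and 41.4% of those with the WT minimum. With SFN, 46 passed (67.6%), at a background of 59.7% and 71.1%, and 19 were higher and 27 lower (27.9% and 39.7%), against 31.8% and 27.9% of all genes tested and 28.7% and 42.4% of those with the WT minimum. With at least 10 counts required in every library, 24 members were higher and 23 lower with SFN. The members' median log2 fold change was 0.08 with DMSO and -0.11 with SFN, beside -0.11 and -0.11 for genes with the WT minimum. In both pretreatments 17 members rose and 15 fell, 0 passed in opposite directions, 7 passed with DMSO alone, 14 with SFN alone and 15 with neither. Passing in a single pretreatment does not show that the pretreatments differ.

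Hs3st1 (chr5:39613935-39755475, minus strand, GRCm38), which encodes a sulfotransferase of heparan sulfate, had the largest rise. Its level was 225 and 234 CPM with DMSO and 200.3 and 226 CPM with SFN at 6 h, from 12.3 and 10.4 or 5.12 and 3.57 CPM under isosmotic conditions. The log2 fold change was 4.34 ± 0.12 (20.2-fold) with DMSO and 5.64 ± 0.13 (50-fold) with SFN. At 6 h the DMSO and SFN libraries overlapped. Lifr (chr15:7090614-7197489, plus strand) rose from 3.96 and 2.87 to 20.8 and 17.4 CPM with DMSO (2.49 ± 0.18) and from 2.99 and 3.03 to 17.2 and 15.7 CPM with SFN (2.45 ± 0.18). The protocadherin gene Pcdh17 rose by 2.41 ± 0.18 with DMSO and, with SFN, to 24.1 and 25.3 CPM (6.07-fold).

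Among the transcription factors, Ehf rose from 15.5 and 14.6 to 75.7 and 75.8 CPM with DMSO (2.33 ± 0.13), and from 7.76 and 10.1 to 70.9 and 57.9 CPM with SFN (2.83 ± 0.13). Twist1, a regulator of mesenchymal fate, rose from 6.54 and 5.92 to 23.8 and 23.2 CPM with DMSO (1.91 ± 0.16) and also with SFN (1.52 ± 0.15). Pax3 and Gata6 fell with SFN (-0.92 ± 0.16 and -0.73 ± 0.13), and with DMSO their values were -0.03 ± 0.17 and 0.19 ± 0.14, which did not pass. Peg3 fell in both (-0.80 ± 0.11 and -0.33 ± 0.11). In the nuclear group, Nol4 rose by 2.04 ± 0.19 and 2.16 ± 0.20, whereas Pcbp3 (-1.16 and -0.88), H1f10, a linker histone gene (-1.06 and -0.73), and Hdgfl3 (-0.87 and -0.72) fell.

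Of the 12 kinases, G proteins and partners, 7 rose and 1 fell with DMSO, and 6 rose and 3 fell with SFN. Of all genes tested, 30.5% rose and 27.1% fell with DMSO, and 31.8% rose and 27.9% fell with SFN. Whether this small group differs from other genes was not tested. Sipa1l2 (1.86 ± 0.21 with DMSO, 1.05 ± 0.21 with SFN), Lrrk2 (1.66 ± 0.16 and 1.30 ± 0.15), Kctd12 (1.46 ± 0.15 and 1.06 ± 0.15), Prkd1 (1.45 ± 0.20 and 1.07 ± 0.20), Arhgap28 (1.19 ± 0.14 and 1.18 ± 0.14) and Dapk1 (0.48 ± 0.12 and 0.30 ± 0.12) rose in both. Lrrk2 had 22.2 and 14.1 CPM under isosmotic conditions with DMSO and 60.6 and 53.9 CPM at 6 h. Gbp3 fell in both, by more with SFN (-0.41 ± 0.10 and -1.45 ± 0.10), and the difference, -1.04 ± 0.14, is by construction that of its SFN effects given above. With SFN, Adcy1 (-0.51 ± 0.14) and Gnai1 (-0.54 ± 0.13) fell as well.

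Secreted signals and receptors moved in both directions. Ccl2 rose to 148 and 157 CPM with DMSO (1.29 ± 0.08) and to 153 and 164 CPM with SFN (2.63 ± 0.09, 6.20-fold), from a lower isosmotic level with SFN. Cxcl5, another chemokine gene and just outside the limits, had 95 to 284 counts in the isosmotic and 1 h WT libraries, 3212 to 3792 at 6 h and 0 in every Nrf2-/- library. Havcr1 rose by 0.36 ± 0.09 and 0.73 ± 0.09. Bmp7 (-0.93 ± 0.18 and -1.26 ± 0.18), Inhbb (-0.52 and -0.79), C1ql1 (-0.59 and -0.66), Tnfrsf1b (-1.14 ± 0.18 and -0.97 ± 0.18) and the phosphatase gene Ptprm (-0.69 ± 0.18 and -1.25 ± 0.17) fell. Vegfc had 0.44 ± 0.23 and 0.52 ± 0.23 and did not pass in either.

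The largest fall among the members was that of Cyp1b1 (chr17:79701537-79715061, minus strand, GRCm38). The rule asks for at least 100 counts in the 6 h libraries too, so a gene that fell below that limit with stress could not be a member. Cyp1b1 had 47.3 and 43.5 CPM under isosmotic conditions with DMSO and 7.89 and 7.50 CPM at 6 h (-2.56 ± 0.10, 5.89-fold lower). With SFN it went from 39.6 and 43.5 to 7.12 and 8.08 CPM (-2.45 ± 0.11, 5.47-fold lower). At 1 h it was at 34.2 and 35 CPM with DMSO. Pdlim4, an actin-associated protein gene, fell by 0.99 and 1.20 on the log2 scale with DMSO and SFN, and Usp13, a deubiquitinase gene, by 0.54 and 0.96. Lonrf3 rose (1.68 ± 0.17 and 1.14 ± 0.17), Dipk2a rose (1.40 ± 0.20 and 0.60 ± 0.19) and Dnah5 rose (0.68 ± 0.17 and 1.07 ± 0.17). Eva1a rose with SFN, from 3.15 and 2.07 to 8.63 and 9.50 CPM (1.81 ± 0.22), and with DMSO it had 0.34 ± 0.21. Its SFN effect at 6 h differed from the isosmotic one by 1.47 ± 0.30.

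**Figure D5:**
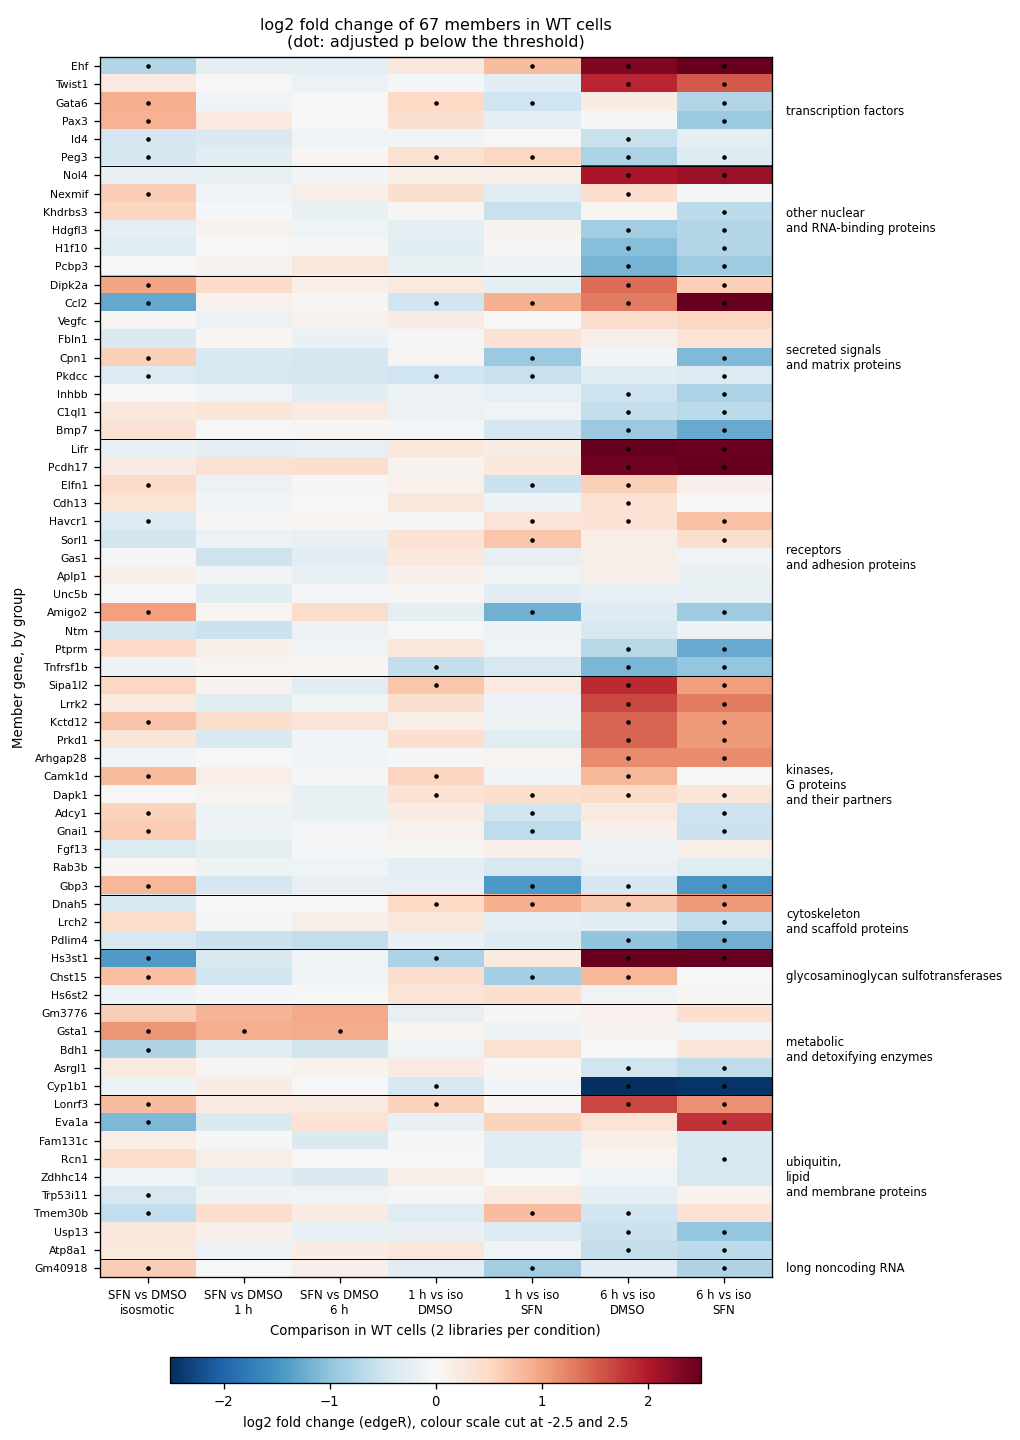
log2 fold change (colour, cut at -2.5 and 2.5) of 67 of the 68 members in 7 comparisons within WT cells, grouped by function and ordered within a group by the 6 h change with DMSO. Dots mark adjusted p under 0.05. The columns for SFN at 1 h and 6 h hold a dot for Gsta1 alone among these members, and those for 6 h of stress hold the most.

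Passing none of the 9 comparisons, the difference tests included, were 12 members: Aplp1, Fam131c, Fbln1, Fgf13, Gas1, Gm3776, Hs6st2, Ntm, Rab3b, Unc5b, Vegfc and Zdhhc14. Unc5b, the abundant member among these, had 55.5 to 74.6 CPM over the 12 WT libraries. The highest level per kb of exon among all members, averaged over the 12 WT libraries, was that of Ccl2 (68.6 CPM per kb). It was followed by Hs3st1 (32.0), whose 6 h libraries raised its average, Gsta1 (19.4) and Havcr1 (15.9). Lifr (0.722) and Chst15 (0.679) were among the low ones.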

How the data were processed

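The authors aligned reads to mm10 and counted them per gene symbol, and they deposited raw counts for each of the 16 libraries. Their methods name Hisat2, Samtools and FeatureCounts, and the submitters' processing notes list Bowtie2, SAMtools and featureCounts. Versions, annotation and strand setting are not given in the sources used here. Unnamed rows (5 in all) were left out. Of low counts (1 to 10), 58.0% to 68.5% were even numbers; fragments may thus be counted by read, and floors cover counting error only.

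Members, gene groups and lists were chosen with earlier results of these data known, and functional groups were assigned from symbols. The genes given with values are Nfe2l2, the 10 members with the highest mean CPM, up to 6 called members with the largest log2 fold change in each direction and comparison, members at either limit, genes just outside, neighbouring members and members on a list; others were named after their values were seen.

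WT counts were tested with edgeR 4.0.16 in R 4.3.3 (TMM, filterByExpr, robust quasi-likelihood F-test, 1 coefficient for each of 6 conditions, Benjamini-Hochberg adjustment over 18959 genes). The Nrf2-/- libraries hold next to no counts for members and entered only as an alternative. WT against Nrf2-/- values were not tested, as they chose the members. Replicates are called biological in the study, and an exact permutation test of 2 against 2 could not reach 0.05. Replicate numbers did not pair libraries. The edgeR step was tried on simulated counts. Positions came from GENCODE M21 (GRCm38, the build of mm10), promoters from RefSeq GRCm38.p6. Alternatives were DESeq2 1.42.0, RLE size factors, other filters, other sets of libraries, a replicate block, other count limits and leaving out each library. The results of 1 member and 1 flanking gene are counted in totals but not reported here by name.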

Additional observations from a re-analysis of the deposited data

Results flagged for a closer look

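The SFN effect of 14 members differed between stressed and isosmotic WT cells by the test of the difference itself, in 19 results. At 1 h the SFN effect was more positive than under isosmotic conditions, on the log2 scale, for Ccl2 (1.39), Tmem30b (1.06) and Hs3st1 (1.03). It was more negative for Chst15 (-1.25), Gbp3 (-1.24), Gata6 (-0.99), Amigo2 (-0.96), Gnai1 (-0.75) and Elfn1 (-0.64). At 6 h it was more positive for Eva1a (1.47), Ccl2 (1.34) and Hs3st1 (1.31), and more negative for Gbp3 (-1.04), Cpn1 (-1.02), Gata6 (-0.92), Pax3 (-0.89), Camk1d (-0.83), Adcy1 (-0.73) and Gnai1 (-0.68). The 1 h and 6 h differences share the 4 isosmotic libraries, whose replicates were also the widest apart among the WT conditions. With all 16 libraries in the fit, 2 of the 9 and 2 of the 10 passed, at a background of 0.559% and 0.759% of all genes tested.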

How the results depend on the processing

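The set held 113 genes with a WT minimum of 50 counts, 31 with 200, and 68 to 75 when a library was left out (75 without Nrf2-/- SFN 1 h replicate 2). With all 16 libraries in the fit, fewer members passed for SFN under isosmotic conditions (6, from 27), for 1 h of stress with DMSO (2, from 12) and with SFN (7, from 18), and for the difference in the SFN effect at 1 h (2, from 9) and 6 h (2, from 10); each of these was also called with the 12 WT libraries. That fit shares its spread with the Nrf2-/- 1 h pair, whose coefficient of variation was 0.329. It also called a smaller share of all genes tested, for SFN under isosmotic conditions 2.84% beside 15.2%. For SFN at 1 h, 4 passed with no filter, 2 by DESeq2 and 10 with only the libraries compared, and for SFN at 6 h 2 passed with no filter and 2 with only those libraries, all beside 1. The 6 h difference in the SFN effect had 6 calls with the replicate block and 5 with only the libraries compared. The block changed no other count by over 1.5 times, and the replicate numbers share no deviation (r from -0.0816 to 0.0334 over 15 pairs).

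Leaving out each WT library gave 18 to 27 calls for SFN under isosmotic conditions, 1 to 2 at 1 h and 1 to 2 at 6 h (2 when either WT DMSO isosmotic library is out), 4 to 14 for 1 h of stress with DMSO, 34 to 40 for 6 h with DMSO, 12 to 19 for 1 h with SFN and 39 to 47 for 6 h with SFN. The difference tests had 5 to 11 calls at 1 h (5 without WT DMSO 1 h replicate 2 or either WT SFN 1 h library) and 5 to 10 at 6 h (5 or 6 without any of the 8 stressed WT libraries). Of 79 log2 fold changes of named members, 0 changed sign in any alternative; DESeq2, RLE size factors and both filters kept all 79 past the threshold, and the fit with all 16 libraries kept 45, the fit with only the libraries compared 70 and the replicate block 76. Of the 79, 25 lost the call in at least 1 fit that left out a library.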
